A study of Andropogon gerardi with 36 samples.

Results

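The maize genes hsp70-4 (NCBI gene 542730) and hsp70-5 (NCBI gene 542423) were followed in big bluestem (Andropogon gerardi), a prairie grass, through every array probe that the platform annotation assigned to one of them alone. They are 2 of the 583 gene symbols found there, and had 22 probes, 14 for hsp70-4 and 8 for hsp70-5. The array held 19200 probes, of which 1800 had a single gene symbol. The study addressed warming and altered soil moisture in 12 sheltered plots at the Konza Prairie station. Total RNA of a plant from one plot was labelled with Cy5 and RNA from the partner plot with Cy3, and both were hybridised to a 2-colour array designed for maize. A plant code in the labels names its plot and subplot and ends in a letter, and each array has a sampling time. The labels name no tissue, genotype or plant age. They do not tell which plots or subplots were warmed or watered differently, or what the letter stands for.

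Partner plots were fixed: plots 2 and 3 met on 8 arrays, plots 4 and 5 on 7 and plots 6 and 9 on 8. Plots 7 and 10 had 4 arrays, plots 11 and 12 also had 4, and plots 13 and 15 had 3. By time the 34 arrays split into 11 of June, 6 each of the sets called JulyA and JulyB, and 11 of August. Subplot 1 of both plots was used on 16 arrays and subplots 2 and 4 on 18. Among the 18, plots 2 and 3 set subplot 4 of plot 2 against subplot 2 of plot 3. Plots 4 and 5 set subplot 2 of plot 4 against subplot 4 of plot 5. On those arrays a plot difference and a subplot difference cannot be told apart. The remaining pairs used the same subplot number in both plots. All values below are log2 ratios between partner plots with the lower-numbered plot first, unless given as deposited. For this the sign was turned on the 5 arrays with the higher-numbered plot in Cy5. These arrays run against the others whichever channel was the divisor. Ratios as deposited thus mix both orientations in plots 2 and 3 and in plots 7 and 10. Placing the lower-numbered plot first assumes that Cy5 was divided by Cy3. That assumption could not be checked, so a sign places arrays relative to one another and names no plot as the higher one. Nothing in the labels says that arrays of a pair held separate plants, and 8 combinations of plant codes were used again, on 20 arrays in all. The p-values below therefore measure only the spread between these arrays, and are too small where arrays with a shared code depend on each other.

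HSP70 proteins are ATP-driven chaperones. They hold exposed hydrophobic stretches of newly made or heat-damaged proteins, keep them from clumping and release them to fold, with J-domain proteins as partners that stimulate the ATPase. Plants carry a family of HSP70 genes, some expressed at all times and others switched on strongly by heat through heat shock transcription factors, and water deficit raises several of them too. The annotation does not say to which class or cell compartment hsp70-4 and hsp70-5 belong.

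The hsp70 probes were measured far more often than most of the array. Values were present for 77.0% of all combinations of an hsp70 probe and an array, against 46.2% for all probes with a gene symbol and 28.7% for all probes. The share was 69.5% for hsp70-4 and 90.1% for hsp70-5. An array carried between 4 and 22 of the hsp70 probes, with a median of 18. June was the thinnest time, with 60.3% of hsp70 values present, and JulyB the fullest with 90.2%. Each of the 34 arrays held 2199 to 9530 measured probes, and its median log2 ratio lay between -0.11 and 0.12. Probe 8475 of hsp70-5 was the single hsp70 probe with a value on all 34 arrays, and probe 13143 of hsp70-4 had values on only 4. The requirement of values on at least 28 arrays and at least 2 of each pair left 13 hsp70 probes for testing, 6 of hsp70-4 and 7 of hsp70-5, among 1668 probes in all.

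The hsp70 probes moved together from array to array. Probe 8475 of hsp70-5 ran from -0.98 through a median of 0.05 to 1.84 over its 34 arrays, and its Pearson correlation with the mean of the other hsp70 probes was 0.942. For hsp70-4, probe 5377 ran from -0.94 through -0.02 to 1.31 over 32 arrays, with a correlation of 0.946. Of the 13 probes tested, 12 had correlations of 0.819 (probe 4164 of hsp70-4) to 0.946. Among them the median correlation between 2 probes was 0.856 within hsp70-4 (15 pairs of probes), 0.890 within hsp70-5 (15 pairs) and 0.862 between a probe of one gene and a probe of the other (36 pairs). For these 12 probes the value between the genes thus lay between the values within them. That order depended on leaving out the remaining hsp70-5 probe, which had a low correlation with the others. With all 13 tested probes the medians were 0.856 within hsp70-4, 0.842 within hsp70-5 and 0.858 between the genes. The value between the genes was then above both. For comparison, the median over 83547 pairs of probes of different genes among the 433 annotated probes that passed the filter was 0.0089. Among the 23 genes with at least 5 such probes, hsp70-4 had the highest median correlation between its own probes, and hsp70-5 ranked 3 at 0.842 with all 7 of its probes counted. LOC541664 lay between them at 0.851, and MNB1b, an HMG-type DNA-binding protein, followed at 0.833. These correlations are descriptions over at most 34 arrays, and the probes of one array share its RNA, dye orientation and normalization. Whether a probe of one hsp70 gene also binds transcripts of the other, or those of further bluestem HSP70 genes, was not tested.

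**Figure D1:**
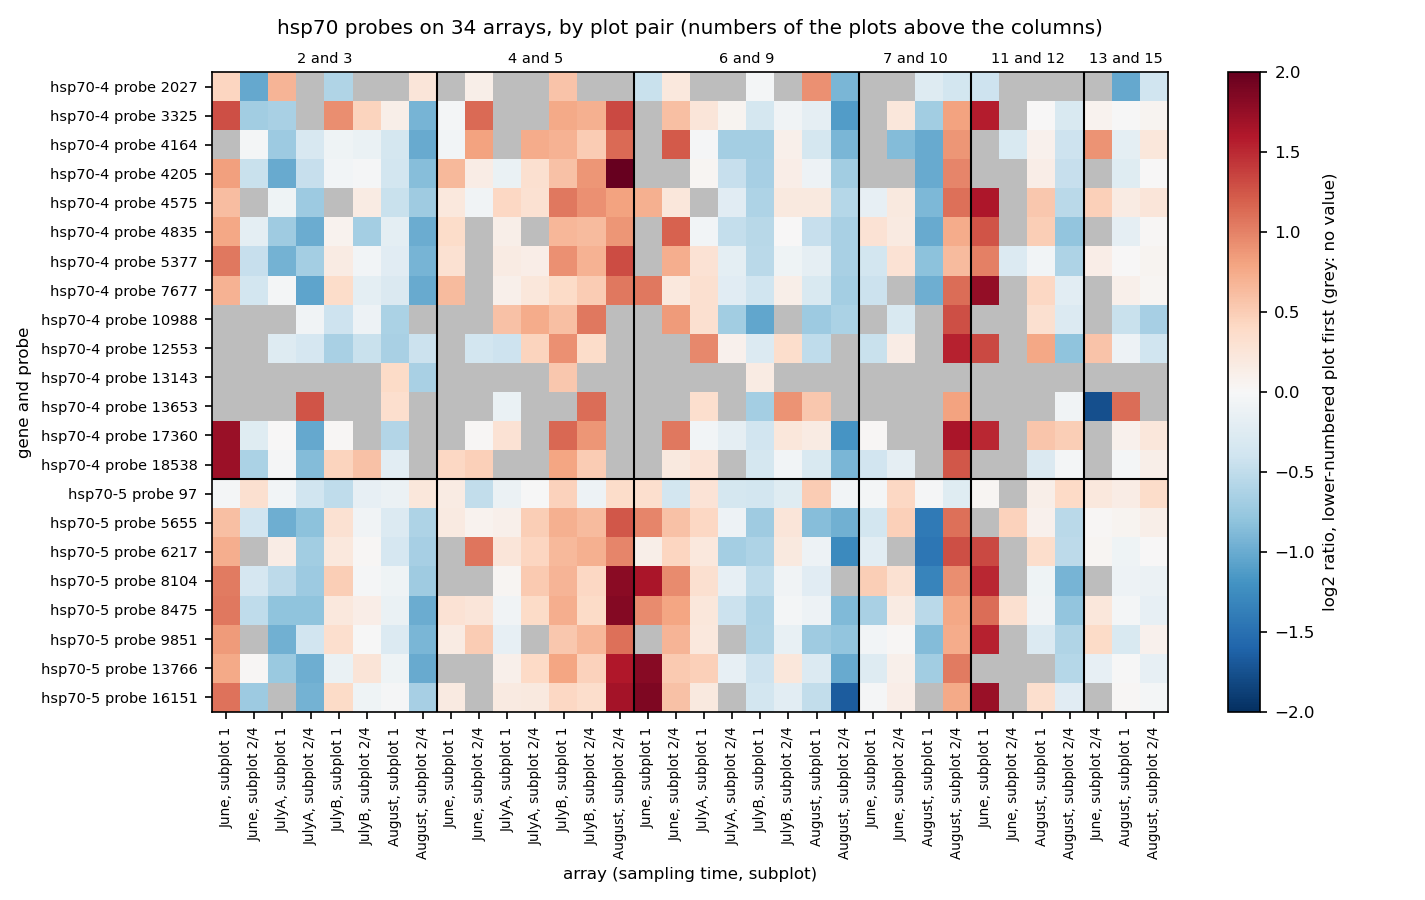
Log2 ratio (lower-numbered plot first, colour scale from -2 to 2, grey for a missing value) of each of the 22 hsp70 probes in rows on the 34 arrays in columns, grouped by plot pair, with black lines between the pairs and between the 2 genes. Most columns have 1 colour from top to bottom, while the rows of hsp70-5 probe 97 and of hsp70-4 probes 2027 and 13653 depart from that pattern.

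Not every probe followed the family. Probe 97 of hsp70-5 was measured on 33 arrays and stayed between -0.51 and 0.50, with an SD of 0.29 where the other tested hsp70 probes had SDs from 0.59 to 0.78. Its correlation with the mean of the other hsp70 probes was 0.0909. Its median correlation with the other 12 tested hsp70 probes was 0.0880. In hsp70-4, probes 2027 (17 arrays) and 13653 (12 arrays) had correlations of 0.0614 and 0.0474 with the rest. Both had missed the filter and, like probe 13143 above, are named after their values were seen. Whether these 3 probes bind another transcript was not tested. The remaining hsp70-4 probes that missed the filter, apart from probe 13143 with its 4 arrays, had correlations from 0.744 to 0.937, and the single such hsp70-5 probe had 0.925. The sizes of response were also close: the slope of a probe on the mean of the others ran from 0.926 (probe 4575) to 1.30 (probe 16151) among the 12 tested probes that followed the family.

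On the level of whole genes, hsp70-4 and hsp70-5 followed each other closely. Averaged over its probes, hsp70-4 ran from -0.83 to 1.24 over the 34 arrays with a median of -0.01, and hsp70-5 from -0.95 to 1.33 with a median of 0.05. The 2 gene means had the same sign on 29 of 34 arrays. Their correlation was 0.925 by Pearson and 0.925 by Spearman, 0.924 by Pearson with the ratios as deposited and 0.897 without the 2 arrays farthest from the median. The difference hsp70-4 minus hsp70-5 had a mean of 0.01 ± 0.22 (SD, n = 34), positive on 19 arrays. Its extremes were -0.68 and 0.29, with the lowest value on a June array of plots 11 and 12 that had 2 measured probes of each gene. The next lowest, -0.66, came from the June subplot 1 array of plots 6 and 9, where 3 probes of hsp70-4 were measured.

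**Figure D2:**
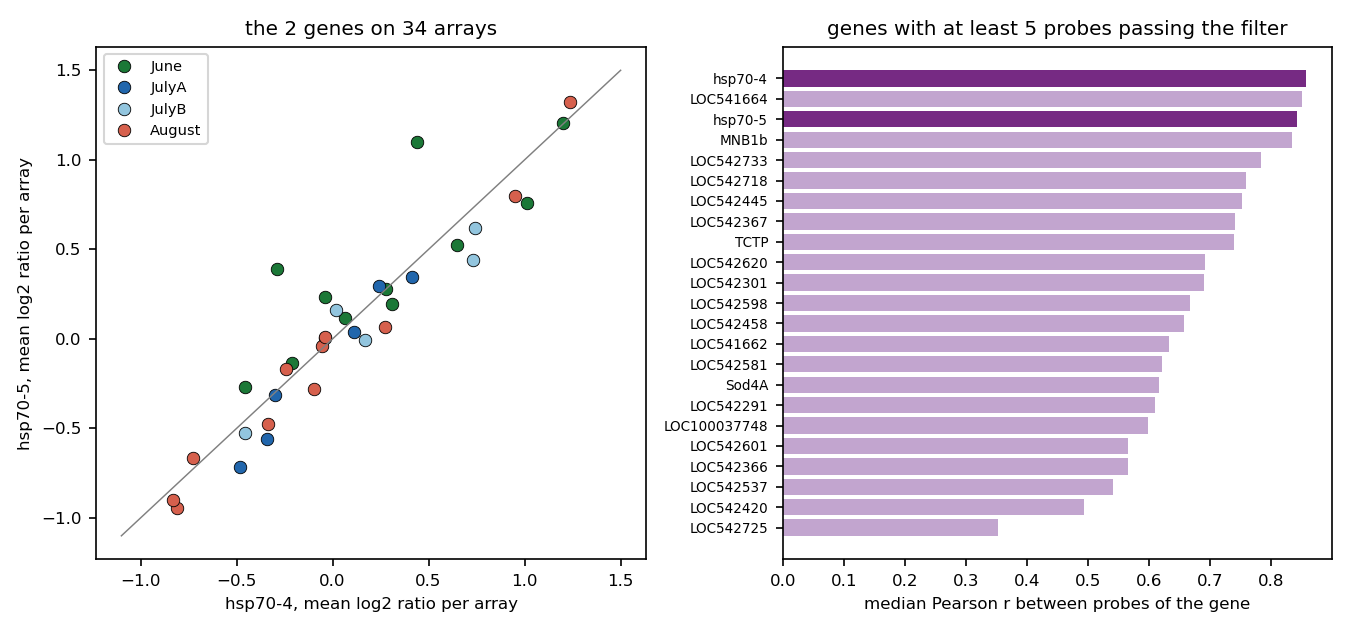
Left: mean log2 ratio of hsp70-5 against that of hsp70-4, 1 point for each of the 34 arrays, coloured by sampling time, with the line of equal values. Right: median Pearson correlation between the probes of a gene for the 23 genes with at least 5 tested probes, hsp70 genes dark. The points follow the line of equal values, and the hsp70 genes rank 1 and 3 of 23.

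Taking both genes together, the spread between arrays exceeded the spread between probes. The SD of the hsp70 means over the 34 arrays was 0.55, while the SD over the hsp70 probes of a single array had a median of 0.34 (range 0.20 to 0.76). The mean was over 0.5 in size on 12 arrays and over 1 on 2. At least 90% of the measured hsp70 probes had the same sign on 14 arrays, and all of them did on 4. Those 4 were the JulyB subplot 1 array and the August array of plots 4 and 5 (21 and 15 probes, all positive), the August array of subplots 4 in plots 6 and 9 (18 probes, all negative) and the August subplot 1 array of plots 7 and 10 (15 probes, all negative).

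The first comparison asked how hsp70 transcripts differed between the plots of a pair. Only in plots 4 and 5 did the hsp70 means of all arrays share a sign, which would be negative throughout if the ratio ran the other way. Plot 4 was in Cy5 on all 7 arrays, so within this pair a plot difference and a dye effect cannot be told apart. Turned arrays, and with them the estimate of the dye term, came only from plots 2 and 3 and plots 7 and 10. In plots 4 and 5 the values were as follows. There, hsp70-4 ran from 0.11 through a median of 0.42 to 1.24 over the 7 arrays, and hsp70-5 from 0.04 through 0.34 to 1.33. Both genes were positive on 7 of 7 arrays. The genes follow each other, and the share of all genes with 1 sign on all 7 arrays was not counted. In plots 6 and 9 hsp70-4 ran from -0.81 through 0.03 to 0.65 (8 arrays), and hsp70-5 from -0.95 through -0.15 to 1.10. Positive and negative arrays were about equally many there, 4 and 4 for hsp70-4 and 3 and 5 for hsp70-5. In plots 2 and 3 hsp70-4 ran from -0.73 through -0.29 to 1.01 (8 arrays), and hsp70-5 from -0.72 through -0.22 to 0.76. The June subplot 1 array was far above the other 7, and without it the mean of hsp70-4 moved from -0.16 to -0.32.

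In the 3 pairs with fewer arrays the hsp70 means were either wide or close to 0. The 4 arrays of plots 11 and 12 gave 1.20, -0.29, 0.27 and -0.33 for hsp70-4, and 1.21, 0.39, 0.07 and -0.47 for hsp70-5. A single June array carried the high value in both genes, and without it the mean of hsp70-4 went from 0.21 to -0.12 and that of hsp70-5 from 0.30 to -0.01. The 4 arrays of plots 7 and 10 gave -0.21, -0.04, -0.83 and 0.95 for hsp70-4, and -0.14, 0.23, -0.90 and 0.80 for hsp70-5. The turned arrays were those at -0.04 and -0.83 for hsp70-4, and as deposited the means of the pair were 0.40 ± 0.58 for hsp70-4 and 0.33 ± 0.60 for hsp70-5 (SD, n = 4). Plots 13 and 15 had gene means near 0 on all 3 arrays. They were 0.06, -0.06 and -0.04 for hsp70-4 and 0.12, -0.04 and 0.01 for hsp70-5. The June 0.06 of hsp70-4 averaged 6 probes with an SD of 0.94, of which 5 were positive and probe 13653 read -1.76. With medians over probes the hsp70-4 level of this pair moved from -0.01 to 0.11. With only probes on at least 28 arrays it moved to 0.16. The arrays of plots 13 and 15 came from June and August, like those of plots 7 and 10.

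**Figure D3:**
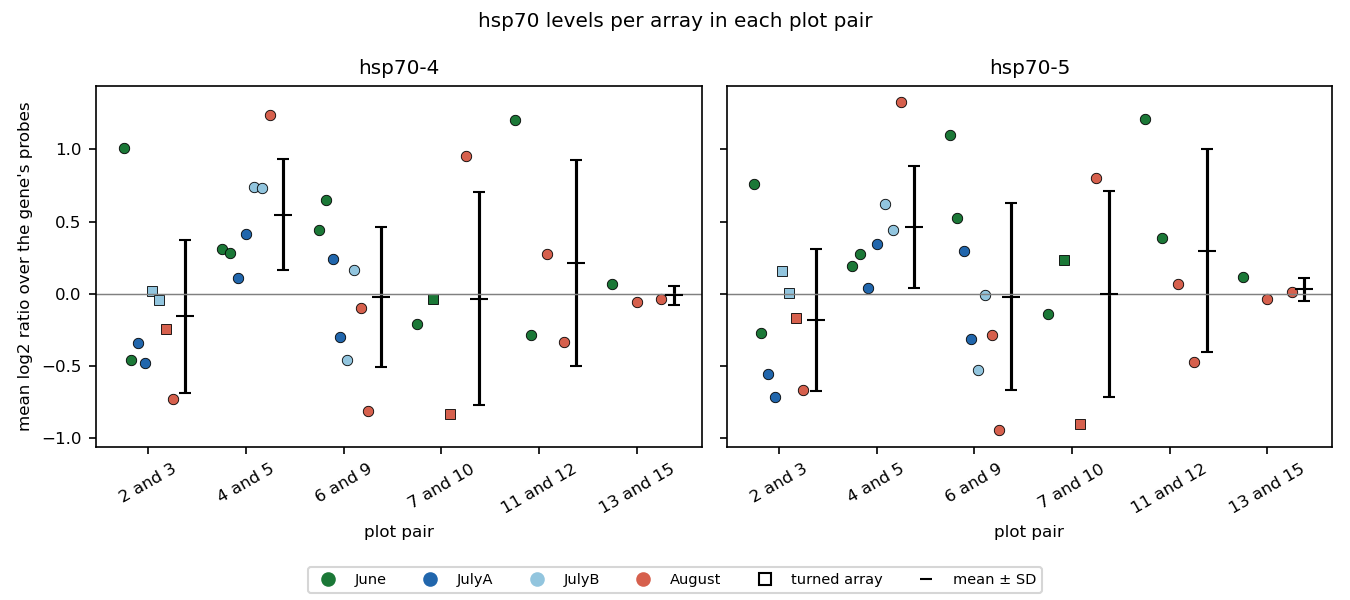
Mean log2 ratio over the probes of hsp70-4 (left) and hsp70-5 (right) on each array, by plot pair, with points coloured by sampling time, squares for arrays whose sign was turned, and the mean ± SD of each pair beside its points. All 7 arrays of plots 4 and 5 lie above 0 in both panels, and the means of the 3 arrays of plots 13 and 15 lie close to 0. The June mean of hsp70-4 in plots 13 and 15 averages probes from -1.76 to 0.90.

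Ordered by the fitted difference with turned ratios, plots 4 and 5 came first, plots 11 and 12 next and plots 2 and 3 last for both genes. As deposited, plots 7 and 10 moved ahead of plots 11 and 12, and the reverse direction of the ratio would invert either order. In mean size without sign, plots 4 and 5 did not stand apart: hsp70-4 had 0.547 there, 0.524 in plots 11 and 12 and 0.509 in plots 7 and 10. For hsp70-5 the size in plots 4 and 5, 0.462, was below those of plots 11 and 12 (0.534), plots 7 and 10 (0.517) and plots 6 and 9 (0.499). The estimates of neighbours in the first order overlapped within their standard errors. The limma fit of 124 genes gave hsp70-4 in plots 4 and 5 a log2 ratio of 0.44 ± 0.25 (SE; limma adjusted p = 0.65). For hsp70-5 in that pair, limma gave 0.44 ± 0.27 (SE; limma adjusted p = 0.667). Neither gene passed the threshold of an adjusted p under 0.05, which 1 gene did in plots 4 and 5 (LOC542438), or 0.806% of the genes tested. An unadjusted p under 0.05 was reached there by 5.65% of genes and by neither hsp70 gene. With the ratios as deposited and no dye term the errors were smaller, and limma gave 0.55 ± 0.18 for hsp70-4 (SE; adjusted p = 0.241) and 0.47 ± 0.19 for hsp70-5 (SE; adjusted p = 0.381), both under 0.05 before adjustment. The background of unadjusted p under 0.05 was 7.26% in that fit, and no gene was called. In the other 5 pairs the fitted hsp70 differences ran from -0.19 ± 0.20 for hsp70-5 in plots 2 and 3 to 0.28 ± 0.32 for hsp70-5 in plots 11 and 12. None of these passed limma's test, with adjusted p of at least 0.82, and none of the 124 genes was called in those pairs (0%). Unadjusted, between 0 and 5 genes of 124 had p under 0.05 in each of them. The F test over all 6 pairs gave neither hsp70 gene a call (limma adjusted p = 0.995 each), where 0 genes were called and 2.42% had an unadjusted p under 0.05.

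Probe by probe, plots 4 and 5 showed the same picture. The 13 tested hsp70 probes had a median coefficient of 0.50 there, beside 0.02 for all 1668 probes. Of the 13, 12 were positive, where 51.8% of all probes were. The exception was probe 97 of hsp70-5 at 0.00 ± 0.16 (SE). No hsp70 probe passed limma's threshold in this pair (0% of all probes did), and 3 had an unadjusted p under 0.05, where 7.73% of all probes did. Besides probe 3325 of hsp70-4 at 0.91 ± 0.35, these were probe 8475 of hsp70-5 at 0.68 ± 0.28 and probe 5377 of hsp70-4 at 0.65 ± 0.27 (SE; limma adjusted p from 0.511 to 0.527). In hsp70-4, probes 4164, 4575, 4835 and 7677 had 0.52, 0.37, 0.44 and 0.45. In hsp70-5, probes 5655, 6217, 8104, 9851 and 16151 had 0.50, 0.44, 0.63, 0.45 and 0.65. With probe 97 set aside, the range of hsp70-5 thus lay within that of hsp70-4. As deposited, 13 of 13 were positive and 11 had an unadjusted p under 0.05, against 10% of all probes, and the lowest limma adjusted p was 0.195. Since these probes follow one another across arrays, their number is not a number of independent observations. With turned ratios, 12 of 13 were also positive in plots 11 and 12 (48.4% of all probes), and 10 were in plots 13 and 15 (59.3%). Plots 2 and 3, plots 6 and 9 and plots 7 and 10 had 1, 4 and 6 positive. Outside plots 4 and 5 the hsp70 medians were smaller, from -0.19 in plots 2 and 3 (all probes -0.09) to 0.22 in plots 11 and 12 (all probes -0.02). A limma call was made for 0 hsp70 probes in each of these 5 pairs, and the unadjusted p was under 0.05 for 1 hsp70 probe in plots 2 and 3 (4.56% of all probes) and for 0 in the other 4.

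The second comparison followed the hsp70 ratio through the season. In plots 4 and 5 the ratio of both genes was larger in JulyB and August than in June and JulyA. The June arrays gave 0.31 and 0.28 for hsp70-4 and 0.19 and 0.28 for hsp70-5, in the order subplot 1 and then subplots 2 and 4. JulyA gave 0.11 and 0.42 for hsp70-4 and 0.04 and 0.34 for hsp70-5. The 2 JulyB arrays stood above all 4 earlier ones, at 0.74 and 0.73 for hsp70-4 and 0.62 and 0.44 for hsp70-5. The single August array was the highest of the pair, at 1.24 for hsp70-4 and 1.33 for hsp70-5. Its mean over both genes was a 2.44-fold ratio, with 15 of 15 measured hsp70 probes above 0. The second August array of this pair held no values and was not used, so nothing replicates the August level. The August array in use set subplot 2 of plot 4 against subplot 4 of plot 5, so plot and subplot cannot be told apart on it.

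In plots 6 and 9 the hsp70 ratio was positive in June and negative in August. The June arrays gave 0.44 and 0.65 for hsp70-4, and 1.10 and 0.52 for hsp70-5. In JulyA the subplot 1 array was at 0.24 for hsp70-4 and 0.29 for hsp70-5, and the array of subplots 4 at -0.30 and -0.31. JulyB reversed that order, with -0.46 and -0.53 in subplot 1 and 0.17 and -0.01 in subplots 4. The JulyB array of subplots 4 carried other plant codes than those of June, JulyA and August, so time and plant code cannot be told apart there. August stood at -0.10 and -0.81 for hsp70-4 and at -0.28 and -0.95 for hsp70-5. All June values of plots 6 and 9 were thus above all August values in both genes. These are 2 arrays against 2, the genes follow each other, and the share of all genes so separated was not counted.

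The other pairs were less uniform over the season. In plots 2 and 3 the June arrays split, with hsp70-4 at 1.01 and -0.46 and hsp70-5 at 0.76 and -0.27. JulyA was negative in both, at -0.34 and -0.48 for hsp70-4 and -0.56 and -0.72 for hsp70-5, and August again at -0.24 and -0.73 for hsp70-4 and -0.17 and -0.67 for hsp70-5. JulyB lay near 0 at 0.02 and -0.04 for hsp70-4 and 0.16 and 0.01 for hsp70-5. Both of its arrays had plot 3 in Cy5 and were turned, so time and dye orientation cannot be told apart there. In plots 11 and 12, sampled in June and August only, the August value was below the June value of the same subplots in both genes. For hsp70-4 in subplots 2 the gap was small, from -0.29 on 2 measured probes in June to -0.33 on 12 in August. Over the 34 arrays the hsp70 mean was 0.35 ± 0.49 in June (SD, n = 11) and -0.08 ± 0.68 in August (SD, n = 11), or 0.33 ± 0.51 and 0.11 ± 0.67 as deposited. In each month these mix 6 pairs.

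**Figure D4:**
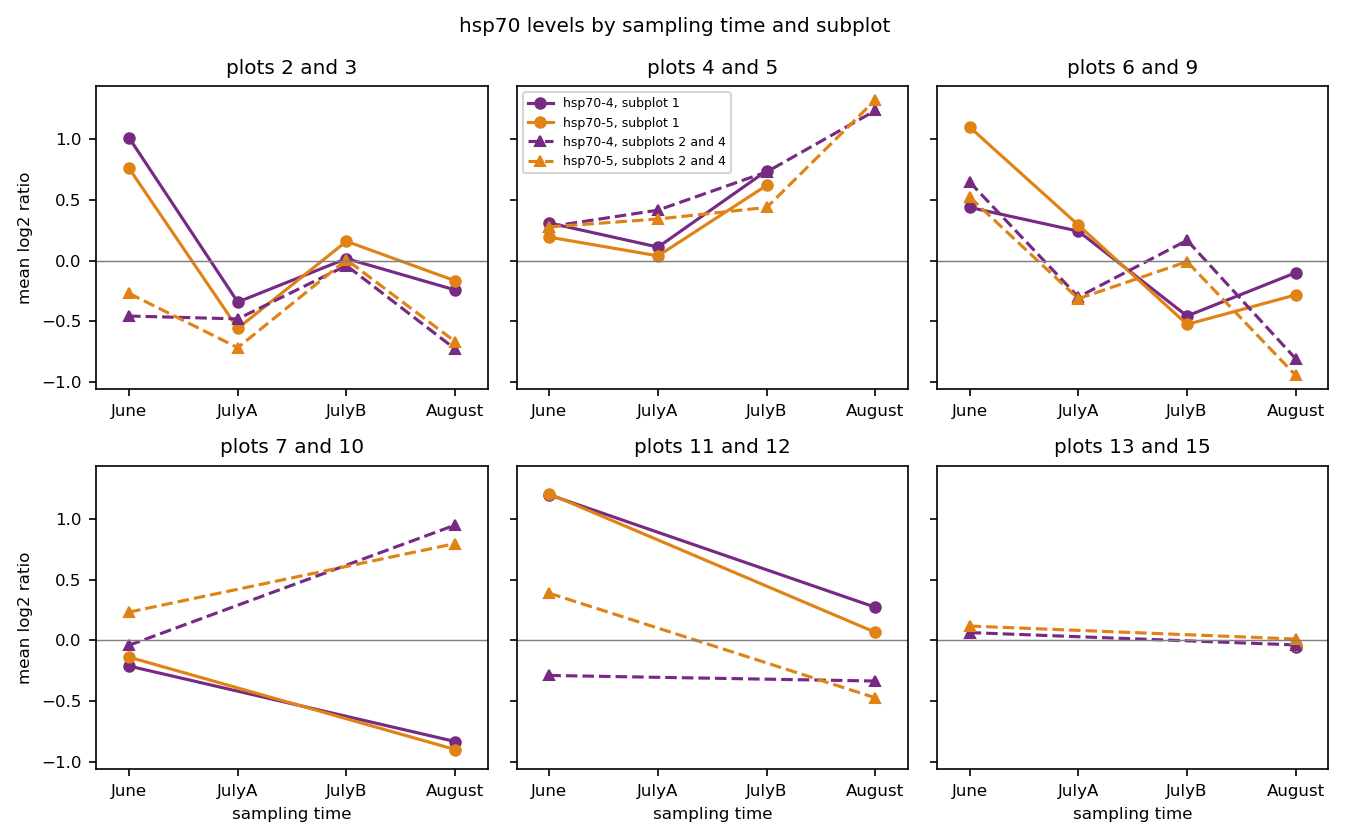
Mean log2 ratio of hsp70-4 and hsp70-5 by sampling time in each plot pair, with 1 point for each array, circles and solid lines for subplot 1 and triangles and dashed lines for subplots 2 and 4, in plots sampled at 4 times (top) or in June and August (bottom). Lines join arrays of the same subplots, whose plant codes differed at some times. In plots 4 and 5 both genes are highest in August (1 array). In plots 6 and 9 the points of the 2 June arrays lie above those of the 2 August arrays.

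The June to August change was fitted in each pair for the genes where it could be estimated there. In plots 6 and 9 limma gave hsp70-5 a change of -1.43 ± 0.47 (SE; limma adjusted p = 0.838) and hsp70-4 a change of -0.998 ± 0.53 (SE; limma adjusted p = 0.875). No call was made among 123 genes (0%), and 4.07% reached p under 0.05 unadjusted, hsp70-5 among them. In plots 4 and 5 the limma changes were 1.09 ± 0.58 for hsp70-5 (SE; adjusted p = 0.679) and 0.94 ± 0.65 for hsp70-4 (SE; adjusted p = 0.899), again with 0 genes called and 7.50% at an unadjusted p under 0.05. In plots 11 and 12 hsp70-5 had a change of -1.002 ± 0.47 (SE; limma adjusted p = 0.692) and hsp70-4 one of -0.49 ± 0.53 (SE). Limma called 0 genes there too, with 6.19% under 0.05 unadjusted, hsp70-5 included. Neither hsp70 gene passed the threshold in any of the 6 pairs. In plots 2 and 3 the changes were -0.58 ± 0.58 for hsp70-4 and -0.53 ± 0.51 for hsp70-5, in plots 7 and 10 they were 0.18 ± 0.53 and -0.10 ± 0.47, and in plots 13 and 15 they were -0.11 ± 0.65 and -0.13 ± 0.58 (SE). As deposited with no dye term, the change in plots 7 and 10 was 0.98 ± 0.48 for hsp70-4 and 1.03 ± 0.40 for hsp70-5 (SE; limma adjusted p = 0.823 each).

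The difference between the courses of plots 6 and 9 and of plots 4 and 5 was itself tested, a choice made with earlier results of these data known. The June to August change in plots 6 and 9 minus that in plots 4 and 5 was -2.52 ± 0.74 for hsp70-5 (SE; limma adjusted p = 0.237) and -1.94 ± 0.84 for hsp70-4 (SE; limma adjusted p = 0.478). Neither passed the threshold, nor did any of the 119 genes (0%), and 8.40% had an unadjusted p under 0.05, both hsp70 genes among them. With ratios as deposited and no dye term, hsp70-5 passed at -2.52 ± 0.62 (SE; limma adjusted p = 0.0408), 1 of 2 genes called of 119 (1.68%), with LOC542737 as the other. In that fit hsp70-4 had -1.94 ± 0.75 (SE; limma adjusted p = 0.3). The arrays of both pairs have the same sign turned and as deposited, and the fits differ in the dye term and in the 5 turned arrays of other pairs. With turned ratios and no dye term hsp70-5 had -2.52 ± 0.74 and was not called (SE; limma adjusted p = 0.191). All of these values lean on 1 August array of plots 4 and 5, which set different subplots of the plots against each other. The F test over the 4 sampling times in the 3 pairs that had them called neither gene (limma adjusted p = 0.955 for hsp70-4 and 0.596 for hsp70-5). There 0 of 113 genes were called and 7.08% had an unadjusted p under 0.05.

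Some plant codes were used at several times, which gives courses with the codes held fixed. In subplot 1 of plots 6 and 9 the same pair of codes was hybridised at all 4 times, and the mean over both hsp70 genes was 0.90, 0.26, -0.48 and -0.17 from June to August. The pair of codes in subplots 4 gave 0.59 in June, -0.31 in JulyA and -0.86 in August. In both courses the June value was the highest. A pair of codes from subplots 2 and 4 of plots 4 and 5 gave 0.38 in JulyA, 0.61 in JulyB and 1.28 in August, so each later value was higher. In plots 11 and 12 both repeated code pairs were lower in August than in June, at 0.19 after 1.20 in subplot 1 and at -0.39 after 0.05 in subplots 2, the last from only 4 measured hsp70 probes. In plots 2 and 3 the repeated pairs gave -0.43 in JulyA and 0.08 in JulyB (a turned array) for subplot 1, and -0.58 in JulyA and -0.70 in August for the other. In plots 7 and 10 the repeated pair of subplot 1 gave -0.17 in June and -0.86 in August, the latter on a turned array. These are single arrays with no test.

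The next comparison set the arrays of subplot 1 beside those of subplots 2 and 4 within a pair. No array compared subplots of one plot, so this asks whether the hsp70 ratio between plots differed with the subplots used. Of 16 combinations of a pair and a time with both arrays, 9 had the same sign of the hsp70 mean on both (10 as deposited). The 2 arrays of a combination differed by 0.01 to 1.76, with a median of 0.40. The closest were the June arrays of plots 4 and 5 and the farthest the August arrays of plots 7 and 10, at -0.86 and 0.89. As deposited, those August arrays read 0.86 and 0.89. They were hybridised with opposite dye orientation, so subplot and dye orientation cannot be told apart there. A wide gap with no turned array was found in June, in plots 2 and 3 (0.89 in subplot 1 and -0.38 in the other) and in plots 11 and 12 (1.20 and 0.05).

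In the limma fit, the subplot 1 arrays minus the others gave hsp70-4 a value of 1.05 ± 0.47 in plots 11 and 12 (SE; limma adjusted p = 0.574) and in plots 7 and 10 a value of -0.98 ± 0.47 (SE; limma adjusted p = 0.948). Both were under 0.05 before adjustment only. In both pairs 0 of 124 genes were called, and an unadjusted p under 0.05 was found for 7.26% and 2.42% of genes. For hsp70-5 the values were 0.68 ± 0.53 in plots 11 and 12 and -1.03 ± 0.53 in plots 7 and 10 (SE). As deposited with no dye term, plots 7 and 10 gave -0.18 ± 0.48 for hsp70-4 and 0.10 ± 0.55 for hsp70-5 (SE). The value there thus depended on whether the arrays of opposite dye orientation were turned. In plots 2 and 3 the differences were 0.62 ± 0.34 for hsp70-4 and 0.49 ± 0.39 for hsp70-5, in plots 4 and 5 they were -0.28 ± 0.36 and -0.31 ± 0.41, and in plots 6 and 9 they were 0.11 ± 0.33 and 0.33 ± 0.38 (SE). In plots 13 and 15 both were within 0.11 of 0. Limma called 0 genes in each of these 4 pairs, with 4.03%, 3.23%, 10.5% and 2.44% of genes at an unadjusted p under 0.05.

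Few other annotated genes followed the hsp70 mean across arrays. Among 123 genes with values on at least 28 arrays the median Pearson correlation with it was 0.0781. The 5 highest were LOC542737 (0.594, 32 arrays), LOC542476 (0.573, 34 arrays), LOC542367 (0.514, 34 arrays), LOC542251 (0.475, 32 arrays) and LOC542718 (0.461, 34 arrays), and the 3 lowest were MNB1b (-0.421, 34 arrays), LOC541619 (-0.421, 30 arrays) and LOC542233 (-0.414, 33 arrays). None of them reached the 0.925 between the hsp70 genes themselves. As deposited the highest were 0.598 and 0.539, for LOC542737 and LOC542476. With turned ratios and without the 2 arrays farthest from the median, LOC542737 and LOC542476 had 0.503 and 0.492. The points share their arrays, and the correlations carry no test. A list of stress and chaperone terms was matched to gene symbols only, and 539 of the 583 symbols were locus numbers that it could not match. It found 1 further annotated gene, Sod4A, a superoxide dismutase, which detoxifies superoxide. Its mean over its probes had an SD of 0.34 over the 34 arrays and was positive on 17, and its plots 4 and 5 arrays lay at -0.02 ± 0.28 (SD, n = 7), where both hsp70 genes were positive on every array.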

How the data were processed

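Per the labels' protocols, RNA was purified with the RNeasy kit and labelled with a Genisphere array kit. The authors deposited 1 ratio per probe and array on a log10 scale, which the labels do not state and the values show: 82.3% to 99.1% of an array's values equalled log10 of one whole number over another, up to 1000 (tolerance 6e-10), and at most 1.39% when read as log2. They were converted to log2 here. Not given in the sources used here are scanner, normalization, filters and the direction of the ratio. Of 36 arrays, 1 was empty and 1 had the same plant code in both channels, which left 34. The number of arrays limits the precision.

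Gene values were means over the probes of a single symbol. Linear models used limma 3.58.1 and statmod 1.5.0 in R 4.3.3. They had coefficients for the plot pairs (or pair and time, or pair and subplot), a dye term and a random block of pair and subplot (none in the subplot fit). Genes or probes needed values on at least 28 arrays and 2 of each pair. Benjamini-Hochberg adjustment ran over all of them, with calls at an adjusted p under 0.05. Because of missing values, each gene was fitted on its own arrays with limma's moderated variance, and the code was tested on simulated data. Alternatives covered ratios as deposited, the dye term, the block, centring and scaling, the probe summary, the filter and each array left out. The block of the plant code pair was added after seeing the data. All 22 hsp70 probes are accounted for. The tested hsp70 probes were named where singled out, and other genes by rank of correlation (5 highest, 3 lowest) or by the stress list. The members, lists and contrasts were chosen with earlier results of these data known.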

Additional observations from a re-analysis of the deposited data

Results flagged for a closer look

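In plots 2 and 3, hsp70-4 was 1.01 on the June subplot 1 array, while the other 7 arrays ran from -0.73 to 0.02, a gap beyond Dixon's limit for 8 values. Chance alone passes that limit in about 1 of 20 sets, and 15 sets of arrays were looked at. On that array hsp70-5 was 0.76 and 16 of 17 measured hsp70 probes were positive.

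The June to August change in plots 6 and 9 minus that in plots 4 and 5 was tested as an interaction, at -1.94 for hsp70-4 and -2.52 for hsp70-5. Both had an unadjusted limma p under 0.05, and neither passed after adjustment over all genes (adjusted p = 0.478 and 0.237).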

How the results depend on the processing

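Only 1 hsp70 result changed sides of the threshold under the alternatives run: the interaction of hsp70-5, -2.52 in both fits, passed with ratios as deposited and no dye term (limma adjusted p = 0.0408, against 0.237). Dropping the dye term alone gave 0.191, and over the 10 alternatives that kept all arrays it ran from 0.0408 to 0.372. With 1 array left out it was 0.0527 at the lowest. The positive values of plots 4 and 5 kept their sign in every fit, at 0.33 to 0.56 for hsp70-4 and 0.30 to 0.56 for hsp70-5 with 1 array left out. As deposited with no dye term, plots 7 and 10 gave 0.40 for hsp70-4, 0.33 for hsp70-5, 1.03 for the June to August change of hsp70-5 and 0.10 for its subplot difference, each with the opposite sign. Values near 0 also changed sign: hsp70-5 in plots 7 and 10 became 0.00626 with centred arrays and 0.00209 with medians over probes. With arrays centred and scaled, hsp70-4 became -0.0750 in plots 11 and 12 and -0.0329 for the subplot difference in plots 6 and 9. In plots 13 and 15 hsp70-4 became 0.0418 with medians and 0.13 with only probes on at least 28 arrays, where the mean of both genes was 0.0852. The cause was not tested beyond what each setting changes by construction.

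The count of called genes for plot differences, 1, became 0 as deposited with no dye term and 0 without the dye term alone, and 0 to 2 with 1 array left out. For June to August it was 0, then 3 with scaled arrays and 0 to 3 with 1 array left out. For the interaction it was 0, then 2 as deposited with no dye term. For the subplots it was 0, then 1 as deposited with no dye term, 1 without the dye term alone, 1 with medians and 0 to 2 with 1 array left out.

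Signs also turned with single arrays left out, with these ranges. Plot differences of hsp70-4 ran from -0.37 (without the August array of subplots 4) to 0.23 (without the August subplot 1 array) in plots 7 and 10, from -0.22 (without the June subplot 1 array) to 0.29 in plots 11 and 12, and from -0.164 to 0.00455 in plots 13 and 15. Those of hsp70-5 ran from -0.30 to 0.33 in plots 7 and 10 (the same arrays), from -0.0246 (without the June subplot 1 array) to 0.53 in plots 11 and 12, from -0.198 to 0.0940 (without the August array of subplots 4) in plots 6 and 9, and from -0.0435 to 0.128 in plots 13 and 15. June to August changes of hsp70-4 ran from -1.31 to 0.30 (without the August array of subplots 2 and 4) in plots 2 and 3, from -0.87 to 1.24 in plots 7 and 10, and from -1.23 to 0.26 in plots 11 and 12. Those of hsp70-5 ran from -1.05 to 0.26 in plots 2 and 3 and from -1.17 to 0.97 in plots 7 and 10. The subplot difference of hsp70-4 in plots 6 and 9 ran from -0.14 to 0.35. Without the single August array of plots 4 and 5 the interaction had no value, and over the other 33 arrays left out in turn it ran from -2.29 to -1.59 for hsp70-4 and from -2.85 to -2.18 for hsp70-5. The labels give no replicate numbers. Repeated plant codes link some arrays of a plot pair across times, and they were used as a block, with no separate paired test. A random block of the plant code pair, an alternative chosen after seeing the data, gave 0.44 for both genes in plots 4 and 5 (limma adjusted p = 0.661 and 0.7) and interactions of -1.93 for hsp70-4 and -2.51 for hsp70-5 (adjusted p = 0.47 and 0.212). It changed no call, and turned hsp70-5 in plots 7 and 10 to 0.00518. The deposited values hold no signal over background, so dim probes could not be set apart, and thin cells of 1 or 2 arrays limit every seasonal value.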

Other observations

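One array carried the same code of plot 13 in both channels and entered no comparison. It held values for 13515 probes, more than any other array, with a median of -0.40 and a median absolute deviation of 1.33, where the 34 other arrays had medians between -0.11 and 0.12. Of the hsp70 probes 20 were measured on it, 14 of them negative, with a median of -0.29 for hsp70-4 and -0.26 for hsp70-5. The single values ran from -5.99 to 1.56, with a second probe at -5.28 and the third lowest at -1.63.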
